A study of Mus with 14 samples.

Results

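Expression of 8 transcription factor genes of myeloid blood cells was followed in stem and progenitor cells of mouse bone marrow: Cebpa, Cebpb, Cebpe and Cebpd, which encode members of the C/EBP family of leucine zipper factors, Spi1, which encodes PU.1, and Irf8, Gfi1 and Klf4. They were taken by gene symbol, and all 8 were found among the 32285 genes listed in each of the 14 libraries. Each library held single-cell transcriptomes of 1 mouse, measured as unique molecular identifiers (UMIs, counts of distinct captured RNA molecules) with droplet-based 3′ sequencing. The sorted cells were donor-derived (CD45.2+), lacked lineage surface markers and carried the receptor Kit (Lin-Kit+CD45.2+). The series asks how the receptors for tumour necrosis factor bear on blood formation from Dnmt3a-mutant stem cells.

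The labels name 4 genotypes: MxCre (3 mice), which carries an inducible recombinase alone, Dnmt3a (4 mice), Dnmt3a;Tnfr1KO (3 mice) and Dnmt3a;Tnfr2KO (4 mice). Tnfr1 and Tnfr2 are encoded by Tnfrsf1a and Tnfrsf1b. The labels do not say which allele of Dnmt3a was used. All groups shared the rest of the procedure: CD45.2+ cells went together with CD45.1+ competitor marrow into primary hosts, which were given poly(I:C) to switch on the recombinase, and then into secondary hosts, which were harvested 20 weeks later. Hosts were aged CD45.1+ mice, lethally irradiated, in both rounds, so every value below was taken from cells that had passed through 2 irradiated animals. The labels do not say which primary hosts supplied which mice, so p-values measure the spread between these mice, which may share a source.

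C/EBPα and PU.1 are required to open the granulocyte and monocyte programme in uncommitted progenitors. C/EBPε and Gfi1 are known for driving neutrophil maturation, and Gfi1 is a repressor of monocyte genes. Irf8 and Klf4 are known for monocyte development, Irf8 also for dendritic and B cells, while C/EBPβ takes over granulocyte production under stress and C/EBPδ accompanies granule gene expression. Irf8 and Gfi1 are held to act against each other when a shared progenitor chooses between the monocyte and the neutrophil fate.

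On the GRCm38 mouse genome the 8 genes lie on 7 chromosomes. Cebpa (ENSMUSG00000034957) spans chr7:35119293-35121928, Cebpb (ENSMUSG00000056501) chr2:167688915-167690432, Cebpe (ENSMUSG00000052435) chr14:54710363-54712174 and Cebpd (ENSMUSG00000071637) chr16:15887286-15889545. Spi1 (ENSMUSG00000002111) spans chr2:91082374-91115759, Irf8 (ENSMUSG00000041515) chr8:120736358-120756694, Gfi1 (ENSMUSG00000029275) chr5:107716655-107725805 and Klf4 (ENSMUSG00000003032) chr4:55527137-55532475. The values are counts over whole genes, with exons and UTRs not told apart.

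The libraries held 62416022 to 162869740 UMIs, and 66895 cells were kept after filtering, 1924 to 7265 per mouse. A kept cell had a median of 10548 UMIs in Dnmt3a replicate 4, the shallowest mouse, and of 39086 UMIs in Dnmt3a replicate 1, the deepest. In Dnmt3a replicate 1, 26.9% of barcodes passed the filters, against 66.7% to 94.4% in the other 13 libraries. Any pair of libraries shared 2 to 23 cell barcodes, at most 0.348% of the smaller library. Tnfrsf1b stood at 4.35 to 5.48 CPM (counts of the gene per 1000000 UMIs of the library) in the 4 Dnmt3a;Tnfr2KO libraries and at 12.2 to 15.5 CPM in Dnmt3a. Tnfrsf1a was 42.0, 33.8 and 38.4 CPM in the libraries labelled Dnmt3a;Tnfr1KO, inside the Dnmt3a range of 32.4 to 52.7 CPM. Its counts were thus not lower there and do not bear that label out. They cannot check it either, as whether 3′ reads lie outside the deleted part is not given in the sources used here. Dnmt3a itself was 22.5 to 28.3 CPM in MxCre and 27.9 to 33.0 CPM in Dnmt3a, and below every Dnmt3a library in the libraries labelled Dnmt3a;Tnfr1KO (21.4 to 22.4 CPM) and in Dnmt3a;Tnfr2KO (22.7 to 25.1 CPM), which checks nothing where 3′ reads fall outside the altered part.

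Cells were placed in lineages by their summed marker UMIs, with none of the 8 genes among the 113 markers. The cells that carry the granulocyte and monocyte programme were 16639 granulocyte-monocyte shared cells (high in Mpo, Prtn3, Ctsg and the like, below the granulocyte and monocyte cuts), 8659 granulocyte-like cells, 2248 late granulocyte-like cells and 7532 monocyte-like cells. Of the others, 11380 were HSC/MPP-like (stem and multipotent progenitor), 2464 megakaryocyte-like, 5191 erythroid-like, 2392 basophil/mast cell-like and 2176 B-lymphoid-like, 1873 of the last from Dnmt3a replicate 4. These are ranges cut from marker scores: 26.3% of granulocyte-like, 16.1% of monocyte-like and 15.8% of HSC/MPP-like cells lay within 20% of their cut.

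The 8 genes differed in which lineages carried them. Levels were taken per mouse as CPM of the summed UMIs of a lineage. They are given as mean ± SD over mice without a test, each gene being compared across lineages only. CPM is a share of UMIs and not a count per cell. Late granulocyte-like cells had a median of 7870 UMIs, beside 29645 in granulocyte-like cells.

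Irf8, the monocyte and dendritic factor, stood at 423 ± 52.1 CPM (n = 14 mice) in monocyte-like cells, with a range of 307 to 527 CPM. It was 82.6 ± 14.5 CPM in granulocyte-monocyte shared cells, 27.9 ± 11.1 CPM in granulocyte-like cells and 0.999 CPM on average in late granulocyte-like cells. B-lymphoid-like cells, measured in 5 mice, had 129.6 ± 42.5 CPM, while erythroid-like and megakaryocyte-like cells had 3.86 and 2.72 CPM. Cells over the cuts of several lineages, which were counted in no lineage, had 630 ± 319 CPM (n = 14 mice). Their median dendritic cell and monocyte marker sums, 41.2 and 9.76 UMIs per 10000, lay above the cuts of 20 and 8. Monocyte-like cells were above B-lymphoid-like cells in 5 of 5 mice and shared cells were above granulocyte-like cells in 14 of 14 mice, both without overlap of their ranges. Granulocyte-like and HSC/MPP-like cells (17.8 ± 8.32 CPM) did not separate, the first being higher in 11 of 14 mice.

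Klf4, a zinc finger factor of monocytes, followed the same side. Its level was 36.3 ± 19.8 CPM in monocyte-like cells and 24.97 ± 9.03 CPM in B-lymphoid-like cells, ranges that overlapped. It was 36.3 CPM on average in the cells over both the granulocyte and the monocyte cut (8 mice) and 42.9 CPM in the 1 mouse with enough T/NK-like cells. Cells over the cuts of several lineages had 80.3 ± 29.7 CPM. The other 7 lineages had means between 0.595 CPM (late granulocyte-like) and 2.55 CPM (megakaryocyte-like). The monocyte-like values ran from 17.2 to 92.99 CPM, with Dnmt3a replicate 4 highest.

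Gfi1, the repressor of monocyte genes, had its highest mean in granulocyte-like cells, at 97.02 ± 10.8 CPM. Late granulocyte-like cells had 58.9 ± 20.3 CPM and shared cells 44.2 ± 6.55 CPM, and these neighbours overlapped. Monocyte-like and basophil/mast cell-like cells had 13.5 ± 2.18 and 14.1 CPM, HSC/MPP-like cells 8.56 ± 3.96 CPM and megakaryocyte-like cells 0.615 CPM. Gfi1 was thus higher in shared than in basophil/mast cell-like cells in 14 of 14 mice with no overlap.

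Cebpe, the factor of late granule genes, was higher in CPM at each step along the granulocyte lineages. At their unequal depth, a median of 92.5% of granulocyte-like and 79.0% of late granulocyte-like cells held a Cebpe UMI. It was 1.65 CPM in HSC/MPP-like, 91.3 ± 10.6 CPM in shared, 176 ± 16.3 CPM in granulocyte-like and 587 ± 68.5 CPM (n = 12) in late granulocyte-like cells. Each of the last 2 steps was seen in every mouse with both lineages (14 of 14 and 12 of 12), without overlap. Monocyte-like cells held 7.95 ± 1.83 CPM, and basophil/mast cell-like cells 77.4 ± 25.5 CPM, which overlapped the shared cells.

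Cebpd, the granule-stage family member, was also highest in late granulocyte-like cells, at 278 ± 36.0 CPM, with 104 ± 12.8 CPM in granulocyte-like, 77.5 ± 12.2 CPM in monocyte-like and 58.0 ± 7.65 CPM in shared cells. Cebpb, the stress-responsive family member, was 204 ± 47.1 CPM in late granulocyte-like cells. Monocyte-like cells (138 ± 44.4 CPM) and granulocyte-like cells (137 ± 28.6 CPM) did not differ beyond their spread in Cebpb, the first being higher in 5 of 14 mice.

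Cebpa, the factor of the entry into the granulocyte-monocyte lineage, had its highest means in basophil/mast cell-like cells (96.2 ± 17.04 CPM) and shared cells (80.1 ± 10.6 CPM). It was 70.7 ± 8.98 CPM in granulocyte-like and 62.6 ± 8.70 CPM in monocyte-like cells, then 24.96 ± 6.34 CPM in HSC/MPP-like and 23.8 ± 10.9 CPM in late granulocyte-like cells. The step from monocyte-like to HSC/MPP-like cells was seen in 14 of 14 mice without overlap. Spi1, which encodes PU.1, was 256 ± 21.1 CPM in granulocyte-like and 251 ± 24.9 CPM in monocyte-like cells. It was 385 ± 47.8 CPM in late granulocyte-like, 213 ± 18.2 CPM in shared, 128 ± 23.8 CPM in HSC/MPP-like and 17.7 CPM in erythroid-like cells.

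Set side by side, granulocyte-like over monocyte-like cells gave a mean log2 ratio of 4.33 ± 0.24 (SD, n = 14 mice) for Cebpe and 2.77 ± 0.23 for Gfi1. The same ratio was -3.98 ± 0.53 for Irf8 and -4.06 ± 0.44 for Klf4. The other 4 genes lay between 0.02 (Cebpb) and 0.43 (Cebpd). In lineages placed this way, 2 genes marked the granulocyte side, 2 marked the monocyte side and 4 were carried by both. Every granulocyte marker used for the placement is also on the list of known C/EBP or Gfi1 targets used below. Most monocyte markers are on that of Irf8, PU.1 or Klf4 targets. The split is therefore not independent of how the cells were placed.

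**Figure D1:**
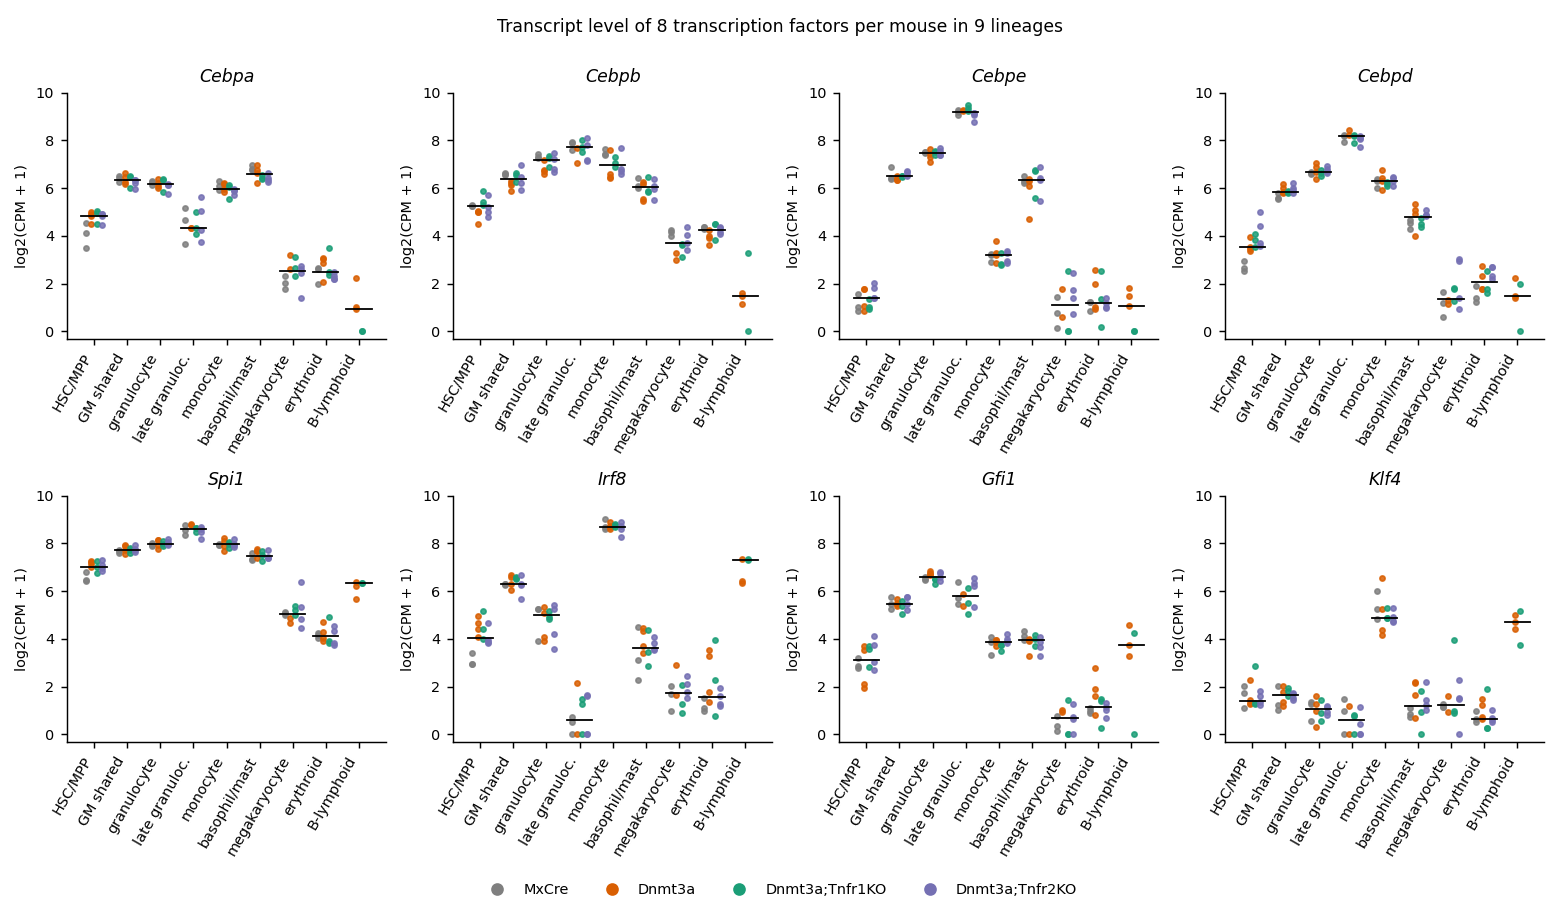
Level of each gene as log2(CPM + 1) on the y axis in 9 lineages on the x axis, with 1 point per mouse coloured by genotype and a line at the median over mice. Irf8 and Klf4 are high in monocyte-like cells, Gfi1 and Cebpe on the granulocyte side, and Cebpa, Cebpb, Cebpd and Spi1 on both.

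Over all kept cells of a mouse, none of the 8 genes passed the test in any comparison. The test was edgeR's quasi-likelihood test on UMI sums per mouse with Benjamini-Hochberg adjustment over all 15614 genes tested, called at an adjusted p below 0.05, and CPM values in these comparisons carry the TMM scaling of library sizes. In these sums a larger share of a cell type and more RNA per cell cannot be told apart. Of 8 members, 0 passed for Dnmt3a against MxCre, where 2.47% of all genes did. Likewise 0 of 8 passed for Dnmt3a;Tnfr1KO against Dnmt3a (0.455% of all genes), for Dnmt3a;Tnfr2KO against Dnmt3a (0.922%) and for Dnmt3a;Tnfr2KO against Dnmt3a;Tnfr1KO (0.186%). At an unadjusted p below 0.05 the counts were 1, 1, 1 and 0 of 8 members, beside 3709, 3067, 3545 and 615 of the 15614 genes, and DESeq2 called 1, 0, 0 and 0 members. DESeq2 called more genes in general than edgeR, at 5.32%, 3.55%, 3.93% and 0.241% of genes over the lineages tested below. The middle comparisons share the Dnmt3a mice, as the first does.

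Irf8 came closest. Its level was 72.2, 84.97 and 43.2 CPM in the MxCre mice and 114, 105, 122 and 134 CPM in the Dnmt3a mice. The libraries labelled Dnmt3a;Tnfr1KO had 190.1, 112 and 146 CPM and the Dnmt3a;Tnfr2KO mice 149, 96.7, 87.2 and 99.8 CPM. Every Dnmt3a mouse was above every MxCre mouse, while the 3 Dnmt3a groups overlapped. The log2 fold change for Dnmt3a against MxCre was 0.83 (SE 0.242), with an edgeR quasi-likelihood adjusted p of 0.0725. It passed with DESeq2 (adjusted p = 0.0116) and without TMM scaling (0.0393). The summed monocyte markers moved with it, at 366 to 539 CPM in Dnmt3a and 190 to 287 CPM in MxCre, as did the lymphoid-primed markers (53.2 to 283 against 25.98 to 37.7 CPM), while megakaryocyte markers moved the other way (33.4 to 333 against 339 to 708 CPM). Monocyte-like cells made up 12.1 ± 4.53% of Dnmt3a and 5.99 ± 1.19% of MxCre cells. Without the monocyte-like cells and the 550 cells over both the granulocyte and the monocyte cut, a setting chosen after seeing the data, Irf8 was 69.5 ± 18.3 CPM in Dnmt3a (n = 4) and 29.2 ± 6.18 CPM in MxCre (n = 3). That log2 ratio was 1.25 (exact two-sided permutation test, p = 0.0286, the smallest this design allows), on CPM without TMM scaling. Other cells with Irf8 stayed in this sum. B-lymphoid-like cells were on average 10.1% of Dnmt3a and 0.0375% of MxCre cells, with 34.5% in Dnmt3a replicate 4. Granulocyte-monocyte shared cells were 24.96% and 14.7%, and cells over the cuts of several lineages 4.15% and 2.19%. The part of these cells in the ratio was not tested.

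Cebpb had the largest difference between the receptor groups and Dnmt3a among the 8 genes. It was 84.7, 103 and 65.2 CPM in MxCre and 53.5, 64.4, 61.6 and 82.5 CPM in Dnmt3a. The libraries labelled Dnmt3a;Tnfr1KO had 107, 88.2 and 103 CPM, all above Dnmt3a, and the Dnmt3a;Tnfr2KO mice 83.2, 73.2, 149.8 and 71.9 CPM. The log2 fold changes against Dnmt3a were 0.60 (SE 0.242, edgeR quasi-likelihood adjusted p = 0.199) and 0.53 (SE 0.226, adjusted p = 0.191), and that of Dnmt3a against MxCre was -0.36 (adjusted p = 0.387). None of these passed. Without Dnmt3a;Tnfr2KO replicate 3 the second was 0.22 (adjusted p = 0.463), and without MxCre replicate 2 the last was -0.21 (adjusted p = 0.708).

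For the other 6 genes the groups overlapped in every comparison over all cells. Cebpe, for example, was 42.7 to 102 CPM in MxCre, 33.8 to 96.8 CPM in Dnmt3a, 61.6 to 99.9 CPM in the libraries labelled Dnmt3a;Tnfr1KO and 55.9 to 112 CPM in Dnmt3a;Tnfr2KO. Klf4 was 3.42 to 8.93 CPM in MxCre and 5.26 to 18.9 CPM in Dnmt3a, the highest value being replicate 4. The log2 fold changes of the 8 genes had a median of 0.30 for Dnmt3a against MxCre, beside 0.03 over all genes. Medians in the other comparisons, in the order above, were 0.18, 0.23 and 0.00, beside -0.05, -0.03 and 0.02 over all genes.

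**Figure D2:**
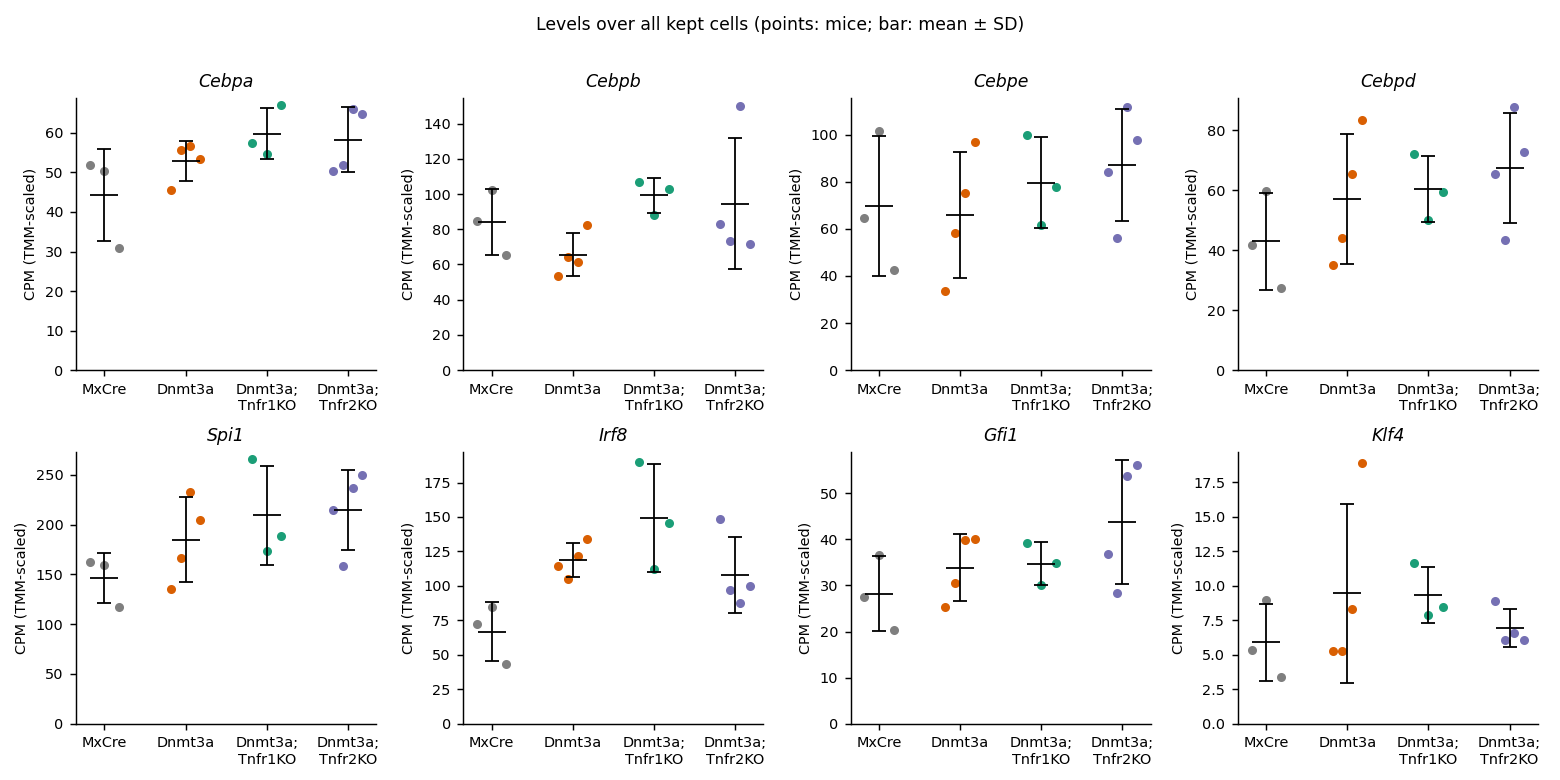
TMM-scaled CPM over all kept cells (y axis) by genotype (x axis), with 1 point per mouse and a bar at the mean ± SD. For Irf8 the 4 Dnmt3a mice lie at 105 to 134 CPM above the 3 MxCre mice at 43.2 to 84.97 CPM, and the other panels overlap except Cebpb between Dnmt3a and the libraries labelled Dnmt3a;Tnfr1KO.

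Within HSC/MPP-like cells Irf8 was higher in Dnmt3a than in MxCre mice. The level was 9.85, 6.57 and 6.58 CPM in MxCre and 26.2, 24.1, 15.3 and 18.6 CPM in Dnmt3a, so the lowest Dnmt3a mouse lay above the highest MxCre mouse. The receptor groups also lay above MxCre, at 37.5, 15.4 and 20.6 CPM in the libraries labelled Dnmt3a;Tnfr1KO and 14.4, 14.8, 25.8 and 13.99 CPM in Dnmt3a;Tnfr2KO, and overlapped Dnmt3a. The rise from MxCre (7.67 ± 1.89 CPM, n = 3, 418 UMIs) to Dnmt3a (21.1 ± 5.02 CPM, n = 4, 906 UMIs) was 1.45 on the log2 scale (SE 0.299, edgeR quasi-likelihood adjusted p = 0.0111). Of the 8 members, 1 passed in this comparison, where 8.19% of 12399 genes did. In the other comparisons, in the order above, 0 of 8 passed, beside 0.774%, 0.992% and 0.194% of genes. There DESeq2 called 1, 1 and 0 members, and over all tested lineages 3.55%, 3.93% and 0.241% of genes. At an unadjusted p below 0.05 the 4 comparisons had 5, 1, 2 and 0 of 8 members, beside 3127, 2189, 2217 and 572 of the 12399 genes. The call was lost with a marker cut raised 1.5 times (log2 fold change 0.87, adjusted p = 0.158), without MxCre replicate 2 (1.36, 0.058) and without MxCre replicate 3 (1.33, 0.0703), and held without Dnmt3a replicate 1, the library with few passing barcodes (1.31, 0.0308).

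Markers of other cell types moved with this Irf8 difference. Within HSC/MPP-like cells the lymphoid-primed markers summed to 67.9 to 285 CPM in Dnmt3a and 37.96 to 46.6 CPM in MxCre, monocyte markers to 72.2 to 124.5 against 58.3 to 71.2 CPM, and granulocyte-monocyte shared markers to 3390 to 3661 against 1898 to 2924 CPM. Eosinophil markers were also higher without overlap, and HSC/MPP, dendritic, megakaryocyte, erythroid and macrophage markers were lower without overlap. In cells with no UMI of the 6 lymphoid-primed markers (6130 of 11380 cells) Irf8 was 5.81 ± 2.95 CPM in Dnmt3a (n = 4) and 3.72 ± 1.24 CPM in MxCre (n = 3), exact two-sided permutation test p = 0.343. In cells with no UMI of the 10 monocyte markers (5011 cells) it was 7.94 ± 1.67 against 3.82 ± 0.742 CPM, without overlap (exact permutation test, p = 0.0286, the smallest possible). With both kinds of cells removed, 3444 cells were left with 22 Irf8 UMIs in Dnmt3a and 47 in MxCre, and the values were 3.64 ± 2.85 and 2.46 ± 0.254 CPM (exact permutation test, p = 0.514). These 3 selections were made after seeing the data and may favour shallower cells, which was not tested. Their CPM values carry no TMM scaling.

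Other members moved in HSC/MPP-like cells without passing. Spi1 was 116, 83.3 and 84.3 CPM in MxCre and 113, 139, 149.7 and 139 CPM in Dnmt3a, a log2 fold change of 0.51 (SE 0.16, edgeR quasi-likelihood adjusted p = 0.0583). Cebpd was 4.88, 6.57 and 5.16 CPM in MxCre and 8.71, 9.29, 10.2 and 13.4 CPM in Dnmt3a, without overlap (log2 fold change 0.91, SE 0.31, adjusted p = 0.078). Cebpa had a log2 fold change of 0.64 (adjusted p = 0.0813). DESeq2 called these 3 genes as well as Irf8, at adjusted p-values of 0.0264 for Spi1, 0.0317 for Cebpd and 0.0451 for Cebpa. It called more genes in general: over all tested lineages 5.32% of genes in this comparison, beside 3.05% by edgeR. Cebpb was 39.1, 37.6 and 36.0 CPM in MxCre and lower in all 4 Dnmt3a mice, at 26.9, 32.2, 21.0 and 28.8 CPM (adjusted p = 0.159). In the libraries labelled Dnmt3a;Tnfr1KO it was 62.3, 43.4 and 38.5 CPM, above every Dnmt3a mouse (log2 fold change 0.82, SE 0.207, adjusted p = 0.0671). That last difference passed with DESeq2 (adjusted p = 0.00689), and Cebpd against Dnmt3a in Dnmt3a;Tnfr2KO did too (0.0303, edgeR 0.116).

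Cebpb, the stress-responsive C/EBP factor, was lower in Dnmt3a granulocyte-like cells than in MxCre. The MxCre mice had 166, 174 and 161 CPM and the Dnmt3a mice 88.9, 137, 92.4 and 96.4 CPM, with no overlap. The libraries labelled Dnmt3a;Tnfr1KO had 125, 171 and 156 CPM and the Dnmt3a;Tnfr2KO mice 122, 150.5, 187 and 102 CPM, both overlapping Dnmt3a. From MxCre (167 ± 6.57 CPM, n = 3) to Dnmt3a (104 ± 22.4 CPM, n = 4) Cebpb fell by 0.69 on the log2 scale (SE 0.182, edgeR quasi-likelihood adjusted p = 0.0387). It was 1 of 8 members to pass, where 5.06% of 11861 genes did. In the other comparisons 0 of 8 passed, beside 3.13%, 5.4% and 0.211% of genes, and 0 by DESeq2. At an unadjusted p below 0.05 the 4 comparisons had 1, 2, 2 and 0 members, beside 2658, 2506, 2886 and 397 of the 11861 genes. DESeq2 also called it (adjusted p = 0.00625). The call was lost without TMM scaling (-0.51, adjusted p = 0.07), with the raised cut (-0.65, 0.0852) and without any 1 of 6 libraries: MxCre replicates 1 (0.148), 2 (0.107) and 3 (0.0976) and Dnmt3a replicates 1 (0.0851), 3 (0.0694) and 4 (0.084). Summed dendritic cell markers moved with it (100.2 to 119 CPM in Dnmt3a and at least 123 CPM in each MxCre mouse). T/NK markers did too (1048 to 1388 against 1414 to 1515 CPM), and the part of both in the result was not tested. Over all mice the T/NK sum had a median of 12.9 UMIs per 10000 in granulocyte-like cells, beside 5.03 in shared and 2.10 in monocyte-like cells. The 16 immediate early genes, which respond to cell handling, overlapped, at 360.0 to 536 CPM in Dnmt3a and 323 to 461 CPM in MxCre.

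The same gene fell in megakaryocyte-like cells. Cebpb was 15.5, 17.8 and 16.9 CPM in MxCre and 7.33 and 6.94 CPM in the 2 Dnmt3a mice with at least 20 such cells, replicates 1 and 2. The libraries labelled Dnmt3a;Tnfr1KO had 12.01, 7.87 and 11.99 CPM and the Dnmt3a;Tnfr2KO mice 10.1, 11.9, 16.3 and 19.8 CPM. Both Dnmt3a mice lay below every other mouse, on 40 UMIs. The fall from 16.8 ± 1.20 CPM (n = 3) to 7.14 ± 0.275 CPM (n = 2) was -1.23 on the log2 scale (SE 0.261, edgeR quasi-likelihood adjusted p = 0.0156). It was 1 of 7 members tested to pass, where 3.79% of 10411 genes did, Gfi1 being too low to test. In the other comparisons 0 of 7 passed, beside 0.586%, 0.682% and 0.0576% of genes, and 0 by DESeq2. At an unadjusted p below 0.05 the 4 comparisons had 2, 1, 1 and 0 of 7 members, beside 2336, 1598, 1741 and 504 of the 10411 genes. DESeq2 gave Cebpb no adjusted p in this comparison, nor in those of the receptor groups with Dnmt3a. The call was lost with called doublets kept (-0.96, adjusted p = 0.0513) and without MxCre replicate 2 (-1.19, 0.056), MxCre replicate 3 (-1.22, 0.0623) or Dnmt3a replicate 1 (-1.26, 0.185). The last fit leaves 1 Dnmt3a mouse, which is assumed to vary like the other groups. In these cells 6 of 13 marker sums did not overlap between Dnmt3a and MxCre, granulocyte-monocyte shared markers being higher (1073 to 1180 against 701 to 1008 CPM) and erythroid markers lower (324 to 455 against 513 to 677 CPM), and their part in the result was not tested.

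Cebpb was low in Dnmt3a in the shared cells too, without passing. It was 99.1, 99.6 and 96.7 CPM in MxCre and 63.7, 69.8, 55.2 and 63.3 CPM in Dnmt3a, with no overlap (log2 fold change -0.65, SE 0.18, edgeR quasi-likelihood adjusted p = 0.0547). The libraries labelled Dnmt3a;Tnfr1KO had 82.3, 104 and 94.96 CPM, above every Dnmt3a mouse (0.58, adjusted p = 0.0755), and the Dnmt3a;Tnfr2KO mice 80.9, 90.6, 129 and 59.8 CPM (0.52, 0.0819). DESeq2 called all 3 of these differences (adjusted p = 0.0121, 0.0276 and 0.0292). In monocyte-like cells Cebpb was 179, 205 and 169.8 CPM in MxCre and 72.6, 93.5, 83.2 and 176 CPM in Dnmt3a, where replicate 4 reached the MxCre level (adjusted p = 0.15). The comparisons with Dnmt3a share the same 4 Dnmt3a mice.

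Cebpe, the driver of granule maturation, was higher in Dnmt3a;Tnfr2KO than in Dnmt3a in granulocyte-monocyte shared cells. The Dnmt3a mice had 66.9, 86.4, 77.2 and 75.2 CPM and the Dnmt3a;Tnfr2KO mice 103, 92.5, 109.8 and 102 CPM, with no overlap. MxCre had 89.7, 118 and 84.3 CPM and the libraries labelled Dnmt3a;Tnfr1KO 97.6, 90.7 and 92.6 CPM, the latter also above every Dnmt3a mouse (adjusted p = 0.148). The rise from 76.4 ± 7.99 CPM (n = 4) to 102 ± 7.10 CPM (n = 4) was 0.41 on the log2 scale (SE 0.108, edgeR quasi-likelihood adjusted p = 0.0472). For Dnmt3a against MxCre 0 of 8 members passed, where 3.67% of 12844 genes did, and for the libraries labelled Dnmt3a;Tnfr1KO against Dnmt3a 0 of 8, beside 4.31%. For Dnmt3a;Tnfr2KO against Dnmt3a it was 1 of 8, beside 3.67%, and for Dnmt3a;Tnfr2KO against Dnmt3a;Tnfr1KO 0 of 8, beside 0.311%. At an unadjusted p below 0.05 the 4 counts were 2, 2, 2 and 0, beside 2734, 2980, 3031 and 506 of the 12844 genes. DESeq2 called 1, 1, 2 and 0 members, and over all tested lineages 5.32%, 3.55%, 3.93% and 0.241% of genes. The Cebpe call was close to the threshold: it passed under 5 of the 17 settings fitted, with adjusted p-values from 0.00726 to 0.147, and of 8 fits that left out 1 library it passed only in that without Dnmt3a replicate 2 (0.0239). The 7 libraries whose removal ended the call were Dnmt3a replicates 1 (0.118), 3 (0.0623) and 4 (0.0792) and Dnmt3a;Tnfr2KO replicates 1 (0.0991), 2 (0.0721), 3 (0.0973) and 4 (0.0732). None of the 13 marker sums was without overlap between these groups in these cells.

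**Figure D3:**
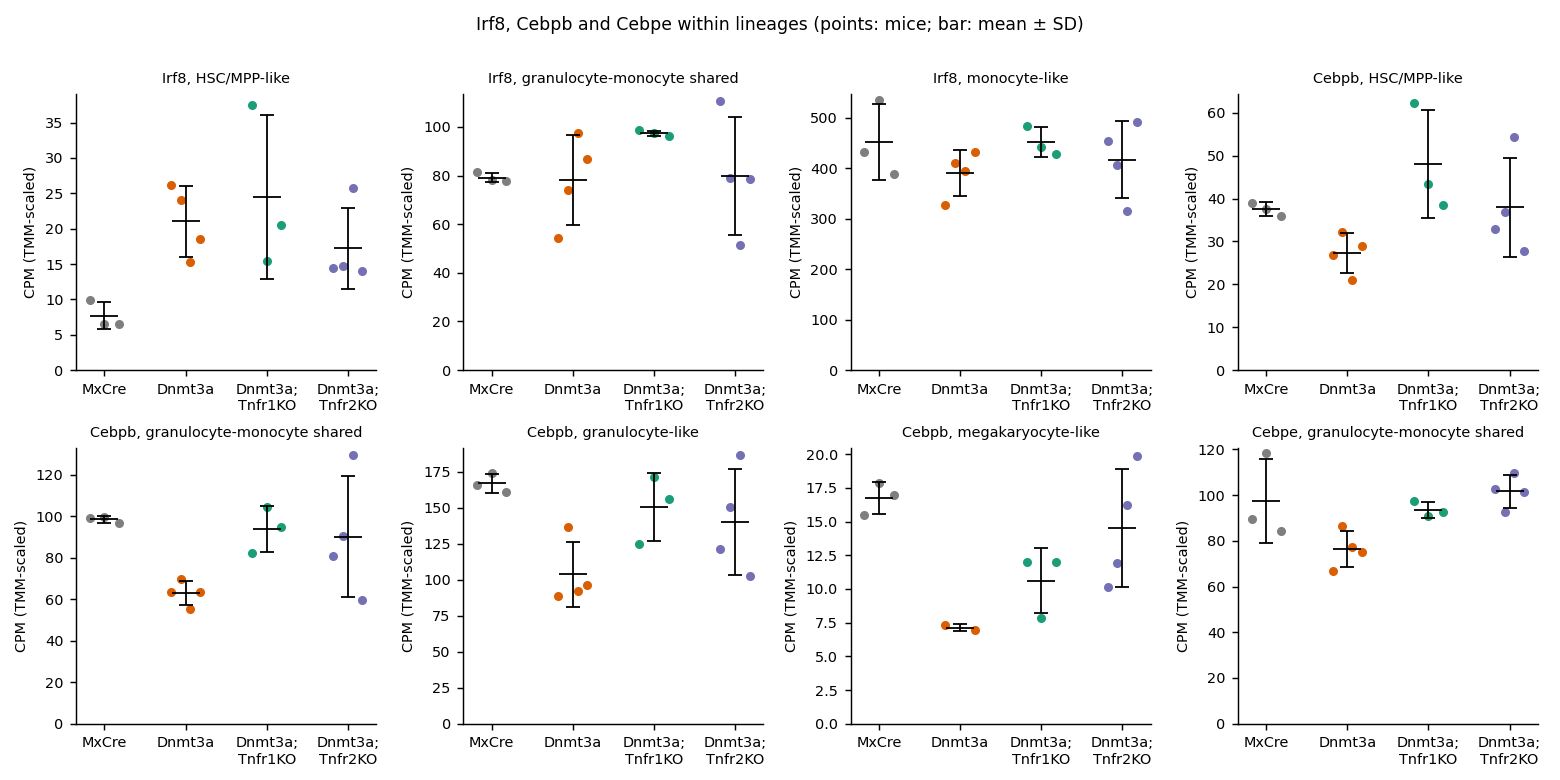
TMM-scaled CPM (y axis) by genotype (x axis) for Irf8, Cebpb and Cebpe in single lineages, with 1 point per mouse and a bar at the mean ± SD. Irf8 in HSC/MPP-like cells is 6.57 to 9.85 CPM in MxCre and at least 13.99 CPM in every other mouse, and Cebpb in granulocyte-like cells is 161 to 174 CPM in MxCre and 88.9 to 137 CPM in Dnmt3a.

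In monocyte-like cells the monocyte factors did not separate the groups. Irf8 was 432, 536 and 389 CPM in MxCre and 327, 411, 393 and 431 CPM in Dnmt3a (log2 fold change -0.21, SE 0.148, edgeR quasi-likelihood adjusted p = 0.476), and Klf4 was 39.7, 65.3 and 27.4 CPM in MxCre and 14.6, 19.5, 35.1 and 84.1 CPM in Dnmt3a. None of the 8 members passed in the 4 comparisons, beside 0.36%, 1.06%, 1.32% and 0.192% of 11958 genes, and 0 by DESeq2. The counts at an unadjusted p below 0.05 were 1, 0, 0 and 1, beside 2152, 2288, 2492 and 317 genes. The one of the last comparison was Gfi1, at 11.03 to 12.6 CPM in the libraries labelled Dnmt3a;Tnfr1KO and 13.5 to 17.8 CPM in Dnmt3a;Tnfr2KO (unadjusted p = 0.0368, adjusted p = 1).

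In late granulocyte-like cells, where 6 members could be tested and Dnmt3a rests on replicates 3 and 4, 0 passed, beside 0%, 0.0124%, 0.0124% and 0% of 8055 genes. In erythroid-like cells 0 of 7 passed, beside 0%, 0.0277%, 0.0831% and 0.0462% of 10830 genes. In basophil/mast cell-like cells 0 of 7 passed, beside 1.64%, 0.861%, 0.984% and 0.0922% of 9761 genes. The late granulocyte-like counts at an unadjusted p below 0.05 were 0, beside 299, 346, 770 and 388 genes. The erythroid-like counts were 3, 0, 2 and 0, beside 1840, 1438, 1852 and 135 genes, and the basophil/mast cell-like counts 1, 0, 0 and 0, beside 1532, 1234, 1261 and 325 genes. DESeq2 called 0 in all 3 lineages. The largest of these differences was Irf8 in erythroid-like cells, at 1.86, 1.11 and 0.929 CPM in MxCre and 1.94, 1.42, 7.59 and 21.6 CPM in Dnmt3a, where replicates 3 and 4 stood apart (edgeR quasi-likelihood adjusted p = 0.273). In these cells replicate 4 had a TMM factor of 0.494, beside 0.976 to 1.26 in the other libraries, which raised its scaled CPM.

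Known relatives and targets of the 8 factors gave 3 calls over all cells and a list of other blood transcription factors 2, to be read beside the shares of all genes given above (2.47% for Dnmt3a against MxCre and 0.922% for Dnmt3a;Tnfr2KO against Dnmt3a). Of 32 relatives and partners, such as Cebpg, Irf4, Gfi1b and Id2, 0 passed for Dnmt3a against MxCre and 1 fell for Dnmt3a;Tnfr2KO against Dnmt3a: Id3, an inhibitor of helix-loop-helix factors. Of 26 other blood transcription factors, 2 fell in that comparison: Pax5 (0.0373 ± 0.0227 against 15.1 ± 26.03 CPM) and Ebf1 (0.667 ± 0.139 against 116 ± 194 CPM), both B cell factors, with edgeR quasi-likelihood adjusted p of 0.0393 each. Dnmt3a replicate 4 held 1873 of the 2176 B-lymphoid-like cells, and its part in these calls was not tested. Of 18 monocyte and dendritic genes known as targets of Irf8, PU.1 or Klf4, Ccr2, a chemokine receptor of monocytes, rose from MxCre (21.4 ± 4.63 CPM, n = 3) to Dnmt3a (47.1 ± 10.5 CPM, n = 4), by 1.14 on the log2 scale (SE 0.198, adjusted p = 0.0312 by edgeR). It is also 1 of the monocyte markers. Cd180, a toll-like receptor relative of B and myeloid cells, fell from Dnmt3a (10.96 ± 0.171 CPM) to Dnmt3a;Tnfr2KO (6.54 ± 1.18 CPM; log2 fold change -0.74, adjusted p = 0.0199). These lists were tested with edgeR only. Of 19 granulocyte genes known as C/EBP or Gfi1 targets and 16 immediate early genes, 0 passed in the 4 comparisons by edgeR. The median log2 fold change for Dnmt3a against MxCre was 0.51 for the monocyte and dendritic genes and 0.07 for the granulocyte genes, beside 0.03 over all genes. For the libraries labelled Dnmt3a;Tnfr1KO and for Dnmt3a;Tnfr2KO against Dnmt3a the granulocyte medians were -0.55 and -0.78, beside -0.05 and -0.03 over all genes, and those of the monocyte and dendritic genes 0.05 and -0.08. The granulocyte list holds every granulocyte marker. Late granulocyte-like cells made up 15.3% of Dnmt3a replicate 4 and 0.334% to 0.712% of the other Dnmt3a mice. The part of that mouse in these medians was not tested.

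Within HSC/MPP-like cells, where Irf8 rose, 3 of 16 granulocyte target genes rose from MxCre to Dnmt3a and 0 fell: Mpo, a granule peroxidase (459 ± 108 against 227 ± 97.5 CPM), Ctsg, a granule protease, and Csf3r, the receptor of granulocyte colony-stimulating factor. Of the 18 monocyte and dendritic targets 4 rose (Ccr2, F13a1, Cd180 and Zeb2) and 1 fell (Ifi30, a lysosomal reductase). Of 24 other blood transcription factors 5 fell (Gata1, Gata2, Zfpm1, Tal1 and Gata3, known in erythroid, megakaryocyte, stem or T cells) and 2 rose (Ikzf2 and Ebf1). Of 27 relatives and partners 1 rose (Zeb2, which is on both lists) and 0 fell, and of 15 immediate early genes 0 passed. Over all 12399 genes 481 rose and 534 fell (8.19% in all). Medians were 0.45 for the granulocyte and 0.53 for the monocyte and dendritic list, beside 0.01 over all genes. Mpo, Ctsg, Csf3r, Ccr2 and F13a1 are also lineage markers. These genes of a single lineage were named after their values were seen.

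Irf8 and Gfi1 were found in the same cell less often than the product of their single shares in every mouse over all granulocyte-monocyte cells. To set cells of unequal depth side by side, each cell was thinned to 5000 UMIs, and shallower cells were left out (5.004% of MxCre, 6.82% of Dnmt3a, 15.4% of Dnmt3a;Tnfr1KO and 5.23% of Dnmt3a;Tnfr2KO granulocyte-monocyte cells). Of 32825 such cells, a median over mice of 34.2% had an Irf8 UMI and 19.0% a Gfi1 UMI. Both were seen in 3.23% of cells (1.93% to 3.74%), beside a product of 6.37%, a median log2 ratio of -1.07 (-1.53 to -0.78). The observed share was below the product in 14 of 14 mice, on 994 cells with both. The single shares also differ between the lineages pooled here.

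Within lineages the median deficit over mice was smaller, although in 4 mice (Dnmt3a replicates 1, 2 and 4 and Dnmt3a;Tnfr1KO replicate 2) the granulocyte-like cells had a larger one than all granulocyte-monocyte cells. In granulocyte-monocyte shared cells 25.9% had Irf8, 17.4% Gfi1 and 3.28% both, beside a product of 4.498%. Summed over mice, 480 of 15634 cells held both where 685.5 were expected, a ratio of 0.700, and the share was below the product in 14 of 14 mice. In granulocyte-like cells Gfi1 was seen in 37.6%, Irf8 in 10.6% and both in 1.83%, beside 3.86%, again below in 14 of 14 mice (165 cells of 8159, 300.5 expected). Monocyte-like cells had Irf8 in 80.6%, Gfi1 in 5.87% and both in 4.30%, beside 4.64%, below in 11 of 14 mice (324 cells, 336.5 expected). Their medians of the log2 ratio were -0.57, -0.88 and -0.08.

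HSC/MPP-like cells gave the other direction at low levels: both genes were seen in a median of 0.524% of cells, above a product of 0.215%, in 11 of 14 mice, on 48 cells of 10959. The shares in lineages not known for these genes give the background. Irf8 was seen in 1.23% and Gfi1 in 0.288% of thinned erythroid-like cells (median depth before thinning 21990 UMIs, beside 15964 in HSC/MPP-like and 30106 in granulocyte-monocyte cells), and both in 1 of 4807 cells. In 2312 megakaryocyte-like cells none held both. The HSC/MPP-like share was above the erythroid-like one in 14 of 14 mice for Irf8 (median 6.54%) and in 13 of 14 for Gfi1 (median 3.47%). In Dnmt3a replicate 3 Gfi1 was seen in 1.56% of HSC/MPP-like and 3.96% of erythroid-like cells, so the Gfi1 ranges overlapped.

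Without thinning the shares were higher and the deficit was smaller. All granulocyte-monocyte cells had both genes in 25.3% beside a product of 30.5% (below in 13 of 14 mice), shared cells in 31.2% beside 33.0% (10 of 14) and granulocyte-like cells in 14.5% beside 17.6% (14 of 14). Monocyte-like cells had both in 29.98%, beside 29.4%, and lay above the product in all 14 mice. Irf8 was then seen in a median of 96.2% of these cells, which leaves little room for the share and the product to differ.

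**Figure D4:**
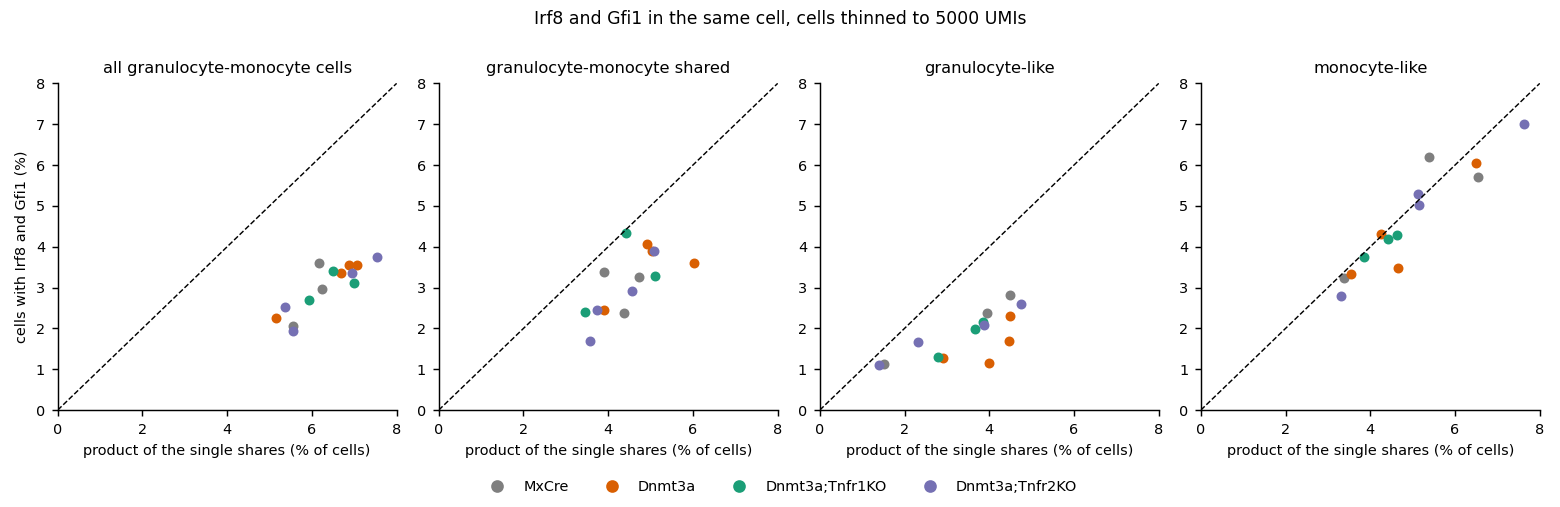
Share of cells with both Irf8 and Gfi1 (y axis, percent) against the product of the single shares (x axis, percent) after thinning to 5000 UMIs, with 1 point per mouse coloured by genotype and a dashed line of equality. All 14 mice lie below the line for all granulocyte-monocyte, shared and granulocyte-like cells, and 11 of 14 do for monocyte-like cells.

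No difference between genotypes in this co-detection passed the test. Over all granulocyte-monocyte cells both genes were seen in 2.87 ± 0.768% of MxCre (n = 3), 3.18 ± 0.616% of Dnmt3a (n = 4), 3.07 ± 0.354% of Dnmt3a;Tnfr1KO (n = 3) and 2.89 ± 0.812% of Dnmt3a;Tnfr2KO cells (n = 4). Of 32 exact two-sided permutation tests (4 comparisons, 4 lineages, the share and the log2 ratio), 0 passed after Benjamini-Hochberg adjustment, made for each measure apart. With 3 or 4 mice a group the smallest p is 0.0286, which alone adjusts to 0.457, so no single difference could have passed. For the share, the largest difference lay in monocyte-like cells, where Dnmt3a;Tnfr2KO was 0.944 percentage points above Dnmt3a;Tnfr1KO (exact permutation test, p = 0.457). For the log2 ratio it lay in granulocyte-like cells, at -0.61 ± 0.16 in MxCre, -1.33 ± 0.35 in Dnmt3a, -0.94 ± 0.14 in Dnmt3a;Tnfr1KO and -0.65 ± 0.27 in Dnmt3a;Tnfr2KO. Dnmt3a did not overlap MxCre (exact permutation test, p = 0.0571, adjusted p = 0.457) or Dnmt3a;Tnfr2KO (exact permutation test, p = 0.0286, adjusted p = 0.457). These ratios rest on 31 cells with both genes in Dnmt3a, 1 of them in replicate 1, and both differences changed sign without thinning, to 0.22 and -0.17.

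Pairs that joined the granulocyte and the monocyte side, Cebpe or Gfi1 with Irf8, were seen together less often than the product in shared and granulocyte-like cells, and their pairs with Klf4 rest on few cells. In granulocyte-monocyte shared cells Cebpe and Irf8 met in 585 thinned cells where 1129 were expected, a ratio of 0.518, below in 14 of 14 mice. Gfi1 and Klf4 met in 18 cells where 27.2 were expected (below in 11 of 14). Cebpe and Klf4 met in 33 cells where 45.7 were expected, below in 9 of 14 mice, as many as for Cebpa and Klf4 (ratio 0.928). Pairs within a side were above: Cebpe and Gfi1 at 1.33 (13 of 14 mice above) and Irf8 and Klf4 at 1.81 (74 cells, 40.9 expected, 12 of 14 above). Among the 4 factors carried by both sides, the pairs ran from 0.983 (Cebpa with Spi1 in shared cells) to 1.08 (Cebpb with Cebpd in monocyte-like cells) over the shared, monocyte-like and granulocyte-like cells.

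In granulocyte-like cells Cebpe and Irf8 again met less often (244 cells, 461.7 expected, ratio 0.529, below in 14 of 14 mice), Klf4 met Cebpe in 16 cells (26.1 expected) and Gfi1 in 9 (16.9 expected), while Cebpe and Gfi1 were at 1.08 (13 of 14 above). In monocyte-like cells the pair that stood out was Cebpb and Klf4, found together in 588 cells where 412.8 were expected, a ratio of 1.42, above in 14 of 14 mice. Cebpe and Klf4 met there in 43 cells where 38.2 were expected, above in 6 of 14 mice. Gfi1 and Klf4 met there in 41 cells where 54.85 were expected, below in 10 of 14 mice. Cebpb and Cebpd were at 1.08 (13 of 14 above), and at 1.07 in shared cells (11 of 14 above). Cells of 1 mouse are not replicates, so these pairs are given by the count of mice and without a p.

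**Figure D5:**
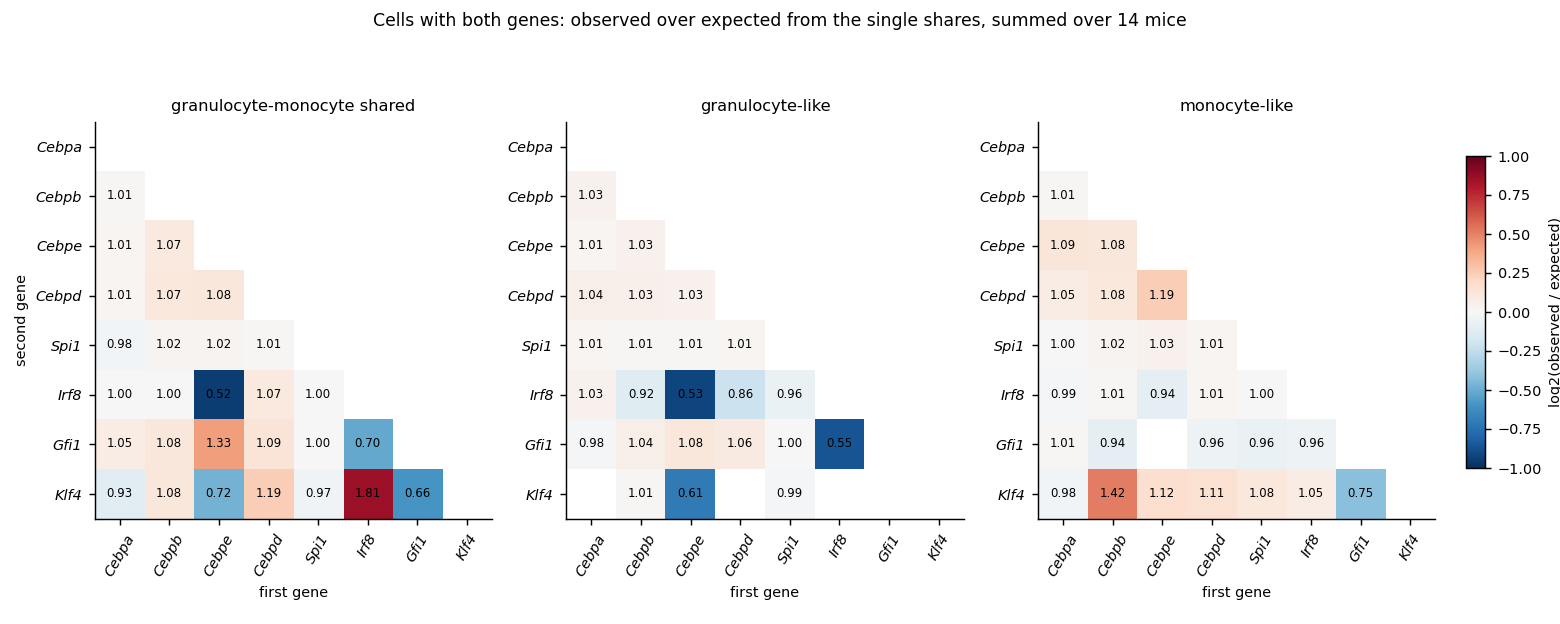
Observed over expected number of cells with both genes for each pair of the 8 genes (both axes), in shared, granulocyte-like and monocyte-like cells thinned to 5000 UMIs and summed over 14 mice, coloured by log2 ratio and blank where too few cells were expected. Cebpe with Irf8 (0.518 and 0.529) is the darkest pair below 1 in shared and granulocyte-like cells, and Cebpb with Klf4 (1.42) stands out in monocyte-like cells.

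The genes whose pattern over lineages and mice was most like each member were found by Pearson correlation of log2(CPM + 1) over 122 sums from 11 lineages, among 10042 genes, with markers and members left out. The sums share libraries and lineages, so no p is given. Irf8 was followed most closely by Ifi209 (r = 0.917), Pou2f2 (0.893) and Serpinf1 (0.892), and Klf4 by Pip4p1 (0.877), Ifi209 (0.875) and Dusp22 (0.868). Gfi1 was nearest to Arsb (0.927), Ccdc125 (0.893) and Xpc (0.890), and Cebpe to Ltb4r1 (0.931), Far2 (0.928) and Ncam1 (0.922). Cebpd was nearest to 1700020L24Rik (0.957), Trem3 (0.956) and Hp (0.954), Cebpb to Lbp (0.906), Myo1f (0.899) and Tnfsf13 (0.892), Cebpa to Gpr160 (0.921), Slc4a8 (0.917) and Hsd17b1 (0.914), and Spi1 to Arl11 (0.951), Adssl1 (0.943) and Napsa (0.939). Among the members, Cebpb and Cebpd (0.908), Cebpd and Spi1 (0.886), Cebpd and Gfi1 (0.843), Cebpe and Cebpd (0.838), Cebpe and Gfi1 (0.834) and Irf8 and Klf4 (0.807) were alike, while Cebpe was unlike Irf8 (-0.03) and Klf4 (-0.25).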

How the data were processed

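The authors deposited whole-number UMI counts per gene and cell barcode, unnormalized, made with Cell Ranger 6.0.0 and bcl2fastq 2.20.0.422 on mm10/GRCm38, per the submitters' processing notes; whether intronic reads were counted is not given in the sources used here. Coordinates are those of GRCm38.p6 in RefSeq. The members and gene lists were chosen with earlier results of these data known, and the lineage cuts were set on these cells.

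Barcodes below 1000 UMIs or 500 genes, or with 10% or more of their UMIs from mitochondrial genes, were dropped, and called doublets (simulated neighbours, 0.8% per 1000 cells) were removed, 3143 in all. A cell took a lineage when its marker UMIs per 10000 passed a cut: 20 for B-lymphoid, dendritic and erythroid, 40 for T/NK, 10 for macrophage, eosinophil and basophil/mast cell, 8 for megakaryocyte and monocyte, 100 for granulocyte (500 for late), 80 for shared and 10 for HSC/MPP markers. Cells over the cuts of several lineages (2135, median 3444 UMIs) and unplaced cells (5264) entered no lineage, and lineages rarer than 20 cells in a mouse were left out there. Dendritic cell-like cells were too few (50) to report, as a cell over both the dendritic cell and the monocyte cut was counted among those over several.

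UMIs were summed per mouse and lineage, scaled by TMM, filtered with filterByExpr and tested two-sided with edgeR 4.0.16 (R 4.3.3), all 4 groups in 1 fit. Shares were compared by exact permutation over mice (scipy 1.17.1). The scripts were tested on simulated data. The members were named in every comparison over all cells and, within lineages, where called or described; other list genes where called over all cells (at most 5 per list), plus the 3 genes most like each member (mean of at least 10 CPM in a lineage). Replicate numbers were not used to pair mice in the main fits. Alternatives were DESeq2 1.42.0, other scalings, filters and cuts, a replicate block, thinning to 2500 UMIs, and each library left out; 4 restrictions of the Irf8 comparison were added after seeing the data. Counting limits cover sampling of UMIs only.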

Additional observations from a re-analysis of the deposited data

Results flagged for a closer look

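Of 96 groups of 4 mice examined, 7 had 1 mouse far from the other 3, with a gap above Dixon's critical value for 4 values; chance gives about 1 in 20. In Dnmt3a;Tnfr2KO replicate 3, Cebpb was 149.8 CPM over all cells (the other mice 71.9 to 83.2 CPM) and 212 CPM in monocyte-like cells (98.7 to 115 CPM), and Irf8 was 25.8 CPM in HSC/MPP-like cells (13.99 to 14.8 CPM). In Dnmt3a replicate 2, Cebpb was 137 CPM in granulocyte-like cells (88.9 to 96.4 CPM). In Dnmt3a replicate 3, Gfi1 was 38.8 CPM in granulocyte-monocyte shared cells (41.0 to 41.4 CPM). In Dnmt3a replicate 4, Irf8 and Gfi1 were seen together in 2.26% of granulocyte-monocyte cells (3.36% to 3.55%). In Dnmt3a;Tnfr2KO replicate 2, the log2 ratio of that share to the product was -1.53 (-1.08 to -1.01).

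Some members also differed without overlap between Dnmt3a and MxCre mice in cells outside the tested lineages. In unplaced cells 5 members were higher in every Dnmt3a mouse: the Dnmt3a and MxCre means were 64.0 and 9.61 CPM for Irf8, 30.6 and 12.6 CPM for Cebpa, 13.4 and 3.31 CPM for Cebpd, 135.0 and 70.2 CPM for Spi1 and 3.15 and 0.844 CPM for Klf4, while Cebpb, Cebpe and Gfi1 overlapped. Of 11693 genes averaging 1 CPM or more in these cells, 14.5% were higher and 6.14% lower in the same way. In cells over the cuts of several lineages the means were 789 and 239 CPM for Irf8 and 93.5 and 51.2 CPM for Klf4. Cebpb was lower there without overlap, at 88.1 and 245 CPM, and the other 5 members overlapped, beside 9.11% of 12369 genes higher and 3.86% lower. These differences were not tested. These cells hold mixed or no markers, and their makeup was not tested.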

How the results depend on the processing

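Over all cells 0 members passed for Dnmt3a against MxCre, and 1 did without TMM scaling and 1 with DESeq2. Both settings called more genes in general, 6.42% and 5.32% over the tested lineages, beside 3.05% in the main fit. Summed over lineages, the 3 calls of that comparison became 6 with DESeq2, 7 without the filter on low counts, 5 with only the 2 groups fitted and 0 to 4 with 1 library left out (0 without MxCre replicate 2 or 3). Of all genes tested in these lineages 3.05% were called, and 5.32%, 2.6% and 1.73% under the first 3 of these settings. With 1 library left out the share ran from 0.437% (without MxCre replicate 3) to 6.92% (without Dnmt3a replicate 2), with 0.496% without MxCre replicate 2. Single calls were also lost, as given above, with raised cuts (2.35% of all genes), without TMM scaling (6.42%) or with doublets kept (2.84%). The 0 calls of Dnmt3a;Tnfr1KO against Dnmt3a became 2, 4 and 2 with DESeq2, without the filter and with 2 groups (all genes 1.47%, then 3.55%, 1.63% and 0.995%). They became 0 to 2 with 1 library left out (all genes 0.137% to 4.63%). The 1 call of Dnmt3a;Tnfr2KO against Dnmt3a (1.78% of all genes) became 3 with DESeq2 (3.93%) and 3 without the filter (1.94%), 0 without TMM scaling (7.48%), 0 with 2 groups (0.212%), 0 with doublets kept (1.67%), 0 with the cuts raised 1.5 times (1.46%), and 0 to 2 with 1 library left out (0.486% to 5.8%). For Cebpb over all cells, Dnmt3a;Tnfr2KO against Dnmt3a;Tnfr1KO (-0.07) ran from -0.39 to 0.04 with 1 library left out, turning positive at 0.03 without Dnmt3a;Tnfr2KO replicate 2 and 0.038 without replicate 4. The cause of these changes was not tested.

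With raised cuts the log2 ratio of granulocyte-like to monocyte-like cells moved to 4.88 for Cebpe, 0.57 for Cebpd, 0.094 for Spi1, -5.06 for Irf8, 3.16 for Gfi1 and -4.78 for Klf4. Without thinning the median co-detection log2 ratios were -0.27 (all granulocyte-monocyte), -0.078 (shared) and -0.26 (granulocyte-like), and the granulocyte-like differences turned to 0.22 (Dnmt3a against MxCre) and -0.17 (Dnmt3a;Tnfr2KO against Dnmt3a). With at least 2 UMIs required the ratios were -2.15 (all), -1.51 (granulocyte-like) and 0.74 (monocyte-like). A mouse with no cell holding both genes has no ratio and was left out of these medians, which raises them. Only 18 differences could be compared at this setting, beside 32 in the main one. The direction in monocyte-like cells can therefore not be read from the 0.74. No co-detection difference passed under any setting run, which the smallest p of this design made unreachable for a single difference.

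Same-numbered mice of different groups showed no shared deviation on average (mean correlation -0.022 over 19 pairs, from -0.476 to 0.439, and 0.007 over 54 others). This cannot show whether they were handled together. A replicate block left 0 calls over all cells and gave 3, 0, 0 and 0 calls over lineages, beside 2.45%, 0.859%, 1.35% and 0.167% of all genes tested there. Cebpe in shared cells was then 0.42 (edgeR adjusted p = 0.0719) and Irf8 in HSC/MPP-like cells 1.55 (0.00857). The megakaryocyte-like Cebpb value rests on 40 UMIs in Dnmt3a, and 3 or 4 mice per group limit all tests.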

Other observations

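Among the target and factor lists, Ifi30 showed calls in several lineages and more than 1 comparison. Erg showed calls in more than 1 comparison in granulocyte-like cells. Both were chosen after their values were seen. Ifi30, a lysosomal reductase of antigen-presenting cells from the monocyte and dendritic target list, was 15.7 ± 2.24 CPM in MxCre (n = 3) and 4.95 ± 1.42 CPM in Dnmt3a (n = 4) HSC/MPP-like cells (edgeR quasi-likelihood adjusted p = 0.00292). It was 13.1 ± 3.43 CPM in the libraries labelled Dnmt3a;Tnfr1KO (adjusted p = 0.019 against Dnmt3a) and 17.1 ± 5.83 CPM in Dnmt3a;Tnfr2KO (0.00162). The same fall and the same higher levels in both receptor groups passed in granulocyte-monocyte shared cells (19.0 ± 5.10, 5.65 ± 1.41, 19.0 ± 2.78 and 18.5 ± 5.79 CPM in the order of groups above) and in granulocyte-like cells (7.93, 1.87, 8.47 and 7.13 CPM).

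Erg, an ETS factor of stem cells, was 9.21 ± 1.13 CPM in MxCre and 16.5 ± 1.498 CPM in Dnmt3a granulocyte-like cells (edgeR adjusted p = 0.0108), with 11.2 ± 1.62 CPM in the libraries labelled Dnmt3a;Tnfr1KO (adjusted p = 0.0448 against Dnmt3a) and 12.1 ± 1.39 CPM in Dnmt3a;Tnfr2KO (0.0496). All 3 comparisons of each gene share the 4 Dnmt3a mice. In the same order, edgeR called 8.19%, 0.774% and 0.992% of all genes in HSC/MPP-like cells. The shares were 3.67%, 4.31% and 3.67% in shared cells and 5.06%, 3.13% and 5.4% in granulocyte-like cells.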
